A study of Rattus norvegicus with 6 samples.

Results

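The sensors of the unfolded protein response and the transcription factors tied to the endoplasmic reticulum (ER) were followed in the jejunum of heat- and shake-stressed rats. The members were 9 genes, and a probe belonged to a member when its RefSeq accession was that of the gene. This held for 7 of the 9 genes, with 1 probe each among the 41012 non-control probes of the array. They were Eif2ak3, Atf4 and Ddit3 of the PERK branch, Ern2 of the IRE1 branch, and Atf6, Creb3l2 and Creb3l3 of the ATF6 and CREB3 family branch. No probe was matched to Ern1 and Xbp1, so Ern2 alone stood for the IRE1 branch here.

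Jejunal RNA of a control group and of a 3-day stress (S3d) group was hybridized to Agilent rat arrays with a single dye, and each group had 3 arrays. All rats were male Sprague-Dawley animals of 6 weeks and 200 ± 20 g. Control rats stayed at 25°C without shaking, and S3d rats went through daily sessions of 2 h, on 3 days, in which the air was at 35°C and the shaking reached 0.1 g. Each sample was described as RNA pooled from 3 of 10 rats per group, the study's methods give another number of rats per group, and each array was counted as 1 replicate. The p-values measure the spread between these arrays only. In RNA of whole jejunum, fewer cells of a type and less RNA per cell cannot be told apart.

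The ER folds secreted and membrane proteins, and unfolded protein in its lumen releases 3 kinds of membrane-bound sensor. PERK, the product of Eif2ak3, phosphorylates the initiation factor eIF2α, which slows translation in general but lets Atf4 mRNA be translated. ATF4 then induces Ddit3, whose product CHOP favours cell death. IRE1 splices Xbp1 mRNA into the form that encodes an active factor, and its Ern2 form is known from the epithelium of gut and airway. ATF6 and the CREB3 family are transcription factors anchored in the ER membrane, which reach the nucleus after they are cut in the Golgi apparatus by the proteases encoded by Mbtps1 and Mbtps2. The sensors are controlled largely at the protein level, by phosphorylation or cutting, and XBP1 through the splicing of its mRNA. The array signals used here do not measure these steps.

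The promoters of the PERK branch are shown because its sensor and its factors moved in opposite directions relative to the 75th percentile of the array. RefSeq windows of the rat assembly GRCr8, the 250 bases before the annotated start, were found for 7 of the 9 members. Capitals mark the letters searched on both strands, namely CCAAT and CCACG (which form the ER stress response element when 9 bases part them), ACGTG (the core bound by ATF6 and XBP1), the cAMP response element TGACGTCA and the C/EBP-ATF element TGATGNAA. CCACG and ACGTG can overlap. The windows lie at chr4:104363622-104363871 (Eif2ak3), chr7:113684431-113684680 (Atf4) and chr7:65001445-65001694 (Ddit3), all on the plus strand.
Eif2ak3: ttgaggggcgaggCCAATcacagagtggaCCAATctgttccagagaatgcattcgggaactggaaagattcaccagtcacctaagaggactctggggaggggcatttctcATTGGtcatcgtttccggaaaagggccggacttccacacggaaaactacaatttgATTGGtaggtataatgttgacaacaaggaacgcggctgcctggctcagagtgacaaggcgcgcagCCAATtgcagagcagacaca
Atf4: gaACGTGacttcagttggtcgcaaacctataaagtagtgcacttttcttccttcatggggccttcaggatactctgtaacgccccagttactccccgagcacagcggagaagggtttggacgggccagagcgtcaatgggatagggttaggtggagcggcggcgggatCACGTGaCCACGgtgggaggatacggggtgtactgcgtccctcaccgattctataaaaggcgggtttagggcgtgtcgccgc
Ddit3: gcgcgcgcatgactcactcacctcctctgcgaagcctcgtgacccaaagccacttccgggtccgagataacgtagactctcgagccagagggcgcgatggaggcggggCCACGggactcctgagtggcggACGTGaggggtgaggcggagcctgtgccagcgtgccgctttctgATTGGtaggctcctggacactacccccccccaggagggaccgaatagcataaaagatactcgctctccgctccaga
The Eif2ak3 window held 5 matches to CCAAT and none to the other searched letters. The Atf4 window held 3 matches to ACGTG and 1 to CCACG, and the Ddit3 window held 1 match to each of these and 1 to CCAAT. Among all 33469 promoter windows of this length, 34.0% held CCAAT, 27.2% CCACG and 16.6% ACGTG. The whole ER stress response element occurred in 0.0657% of the windows, and the Xbp1 window was the only one of the 7 that held it. TGACGTCA and TGATGNAA, which occurred in 1.59% and 3.4% of all windows, were in none of the 7.

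The scanner files and the deposited normalized table carry the same sample names, but each of the 6 table columns followed the scanner file of the same number in the other group (Spearman's rho at least 0.99999, against 0.94134 to 0.94843 for the file of its own label). The 2 sources thus carry opposite group labels. No sample was reassigned: values below are those of the scanner files by their labels, S3d minus control, and the table by its own labels stands beside them. For Eif2ak3, Atf4, Ddit3, Atf6 and Creb3l2 the directions by the scanner labels, with scaling between arrays, oppose those the study gives. The directions by the table's labels are the same as the study's for these genes. The arrays labelled control had 75th percentiles of the signal between 414.8 and 430.0, and those labelled S3d between 1457.7 and 1558.3. Arrays of a group shared 1 slide, and 450 days passed between the scans of both slides. The scanner files of each group also named their own version of the array design, and 4 probes had different gene names in the 2 versions. Slide, scan, design version and group therefore cannot be told apart.

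Levels are log2 signals relative to the 75th percentile of the array. All 7 members were well above background on all 6 arrays and passed the test. By these labels 1 rose in S3d and 6 fell (limma with Benjamini-Hochberg adjustment over 31420 tested probes, adjusted p under 0.05). The background was high, because 73.9% of all tested probes passed this test, 39.5% higher and 34.4% lower, and 52.5% also changed by at least 1.5-fold. Eif2ak3 rose 2.96-fold, whereas Atf6 and Creb3l2 fell 4.04-fold and 3.99-fold. In none of the 7 did the groups overlap, which held for 78.2% of all tested probes.

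**Figure D1:**
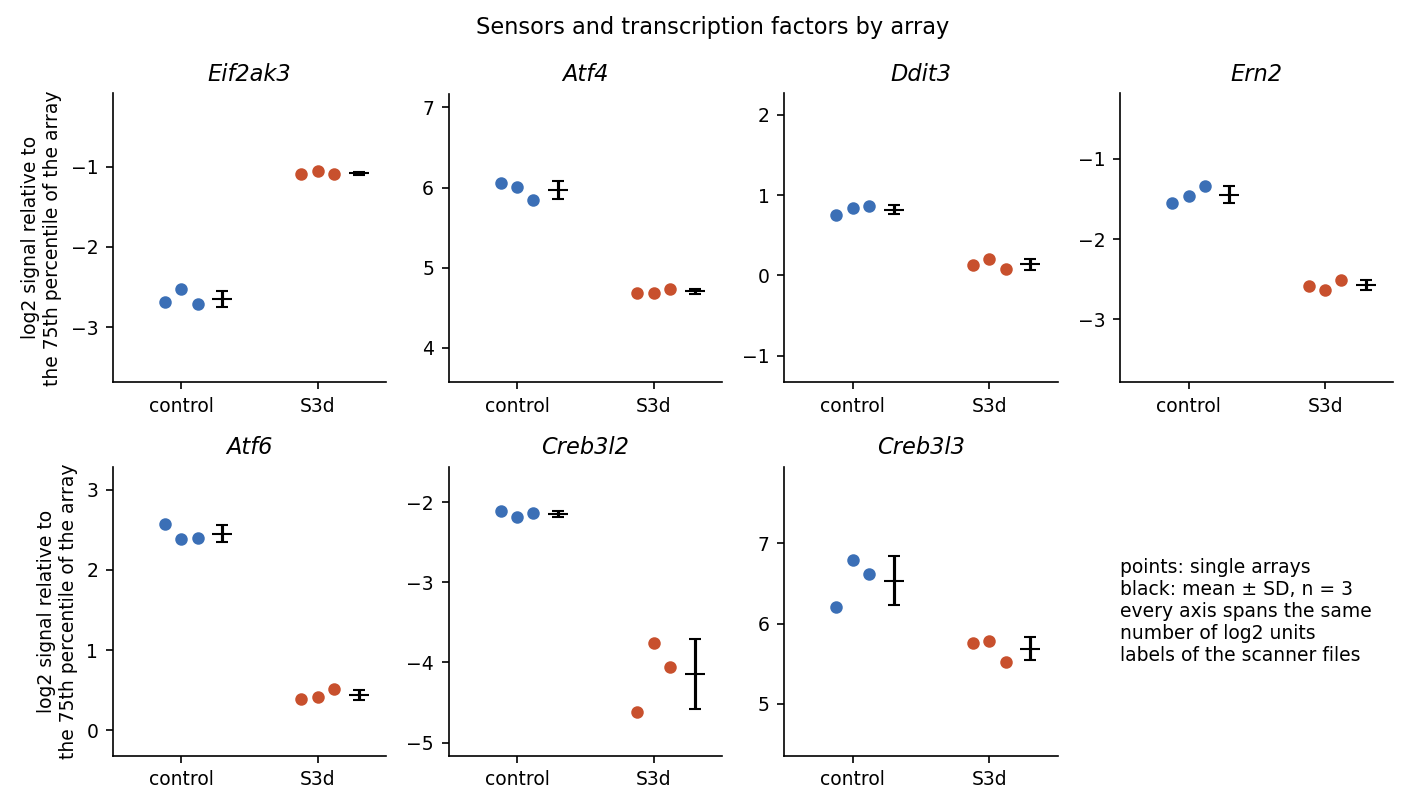
Log2 signal relative to the 75th percentile of the array for the 7 members on each of the 3 control and 3 S3d arrays, by the labels of the scanner files. Points are arrays and black marks are means ± SD (n = 3). Eif2ak3 was higher on every S3d array than on any control array, and the other 6 members were lower.

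In the PERK branch, Eif2ak3 itself had levels of -2.69, -2.53 and -2.71 on control arrays 1, 2 and 3 and of -1.09, -1.06 and -1.09 on S3d arrays 1, 2 and 3. All S3d arrays lay above all control arrays, and their spread was the smaller of both groups. The log2 fold change was 1.56 ± 0.07 (SE, n = 3 per group, limma adjusted p = 1.92e-05), above that of 90.0% of all tested probes. With normexp background correction on all arrays the log2 fold change was 0.41 and not called (limma adjusted p = 0.495). With normexp and control 3 left out it was 0.90 (limma adjusted p = 5.94e-05), so its size depends on the background correction. Before scaling, the processed signal was 64.3 to 73.9 on the control arrays and 683.7 to 747.0 on the S3d arrays.

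Atf4, the translationally induced factor downstream of PERK, had levels of 6.06, 6.00 and 5.85 on the control arrays and 4.69, 4.69 and 4.74 on the S3d arrays. The S3d arrays lay below all control arrays. Its log2 fold change was -1.26 ± 0.08 (SE, n = 3 per group, limma adjusted p = 3.79e-05), a 2.40-fold fall. Ddit3, which encodes the proapoptotic factor CHOP, had levels of 0.75, 0.84 and 0.86 on the control arrays and 0.13, 0.21 and 0.08 on the S3d arrays. It fell as well, by a smaller step, and again the groups did not overlap. Its log2 fold change was -0.68 ± 0.07 (SE, n = 3 per group, limma adjusted p = 0.000237), a 1.60-fold fall. With this scaling the mRNA of the sensor moved opposite to the mRNAs of both factors downstream of it. Without scaling all 3 were called higher, Eif2ak3 by 3.41, Atf4 by 0.58 (limma adjusted p = 0.000407) and Ddit3 by 1.16 (limma adjusted p = 1.35e-05), so the falls of Atf4 and Ddit3 are relative to the 75th percentile of arrays whose overall signal differed.

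In the IRE1 branch, Ern2, the epithelial IRE1 gene, had levels of -1.55, -1.46 and -1.33 on the control arrays and -2.58, -2.63 and -2.51 on the S3d arrays. The S3d arrays were all lower, and both groups were tight. The log2 fold change was -1.13 ± 0.08 (SE, n = 3 per group, limma adjusted p = 6.25e-05), a 2.19-fold fall. Without scaling the direction turned, to 0.71 (limma adjusted p = 0.000338), with processed signals of 142.1 to 170.7 on the control arrays and 243.2 to 273.3 on the S3d arrays.

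In the ATF6 and CREB3 family branch, all 3 members fell. Atf6, the membrane-bound factor that induces ER chaperones, had levels of 2.58, 2.38 and 2.39 on the control arrays and 0.39, 0.41 and 0.51 on the S3d arrays. Its log2 fold change of -2.01 ± 0.08 (SE, n = 3 per group, limma adjusted p = 1.45e-05) was a 4.04-fold fall, and 2.48% of all tested probes had a lower value. Without any scaling the Atf6 signal was nearly level, 2231 to 2473 on the control arrays and 1914 to 2220 on the S3d arrays. The fall of this gene, too, is one relative to the scaling.

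Creb3l2, a CREB3 family factor known for the transport of secretory cargo, had levels of -2.11, -2.19 and -2.14 on the control arrays and -4.61, -3.76 and -4.06 on the S3d arrays. The S3d arrays were all lower but spread widely, with an SD of 0.43 against 0.04 in the control arrays. The log2 fold change was -2.00 ± 0.21 (SE, n = 3 per group, limma adjusted p = 0.000314), with the widest SE of the 7. Without scaling it was -0.15 and not called (limma adjusted p = 0.552). Creb3l3, a factor of liver and small intestine that regulates apolipoprotein genes, had levels of 6.20, 6.79 and 6.62 on the control arrays and 5.76, 5.78 and 5.52 on the S3d arrays. The groups did not overlap, but the lowest control array came close to the S3d arrays. The log2 fold change was -0.85 ± 0.17 (SE, n = 3 per group, limma adjusted p = 0.00429), and under quantile normalization it was -0.18 (limma adjusted p = 0.376), no longer past the test. Without scaling it turned to 0.99 (limma adjusted p = 0.00142).

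The level of a probe moved with its change over the whole array. When the tested probes were split into 10 level classes of equal size by mean level, the lowest class had a median log2 fold change of 1.29 and the highest one of -0.49. Atf4 and Creb3l3 were in the highest class, Atf6 in the next, and Eif2ak3 and Ern2 shared the fifth, whose median was 0.12. In these classes Atf4 and Atf6 lay below the lower quartiles of -0.95 and -0.65, Creb3l3 lay between the lower quartile and the median, and Eif2ak3 lay above the upper quartile of 0.71. Ern2, Ddit3 and Creb3l2 also lay below the lower quartiles of their classes, which were -0.48, -0.53 and -0.51. The part of this trend in the members' values was not tested beyond the quantile normalization, under which Atf4 kept a log2 fold change of -0.75 and Atf6 one of -1.92.

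**Figure D2:**
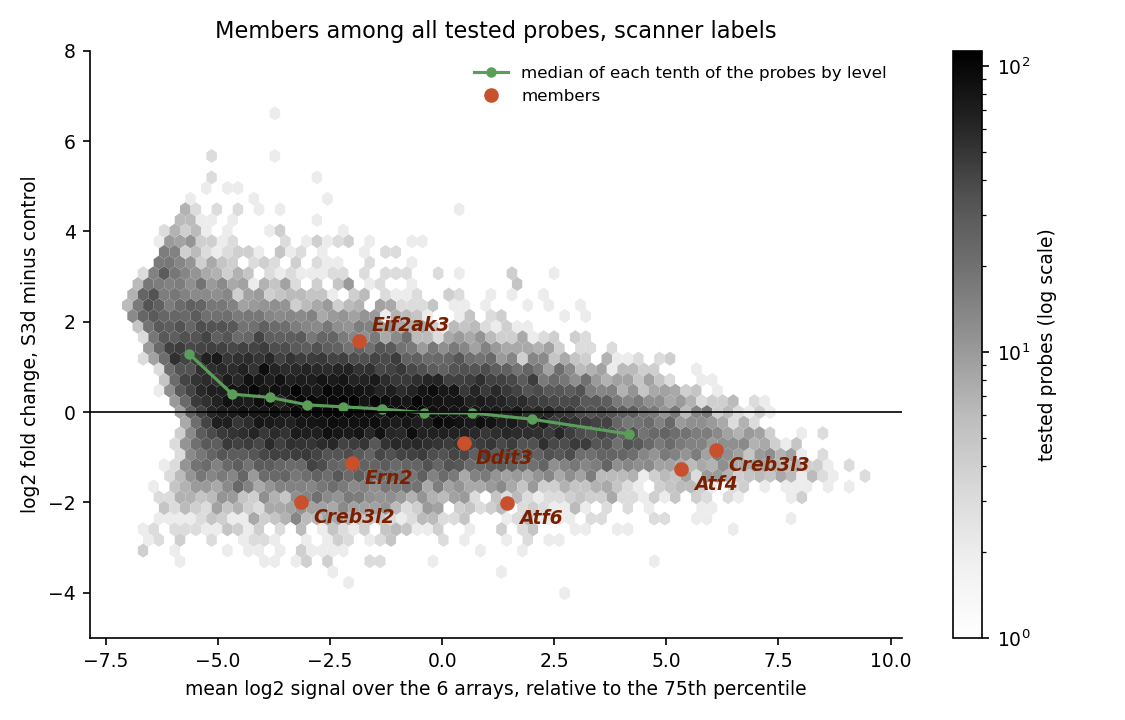
Log2 fold change, S3d minus control by the scanner labels, against the mean log2 signal over the 6 arrays for all 31420 tested probes (grey hexagons, darker where probes are denser on a log scale), with the median of each of the 10 level classes (green) and the 7 members (red). The medians run from 1.29 in the lowest class to -0.49 in the highest. Eif2ak3 is the member above 0.

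The branches were set against each other within each array, where any scaling by a single factor per array cancels. The mean level of the 3 PERK branch genes minus that of the 3 ATF6 and CREB3 family genes was -0.85, -0.89 and -0.96 on the control arrays and 0.73, 0.47 and 0.58 on the S3d arrays. The groups did not overlap, and the shift was 1.49, a 2.81-fold change of the ratio. The differences compare different probes, so their sign within a group has no meaning, and the shift between the groups is what can be read. The PERK branch minus Ern2 shifted by 1.00, from a mean of 2.83 ± 0.14 (SD, n = 3) to 3.83 ± 0.08 (SD, n = 3). The ATF6 and CREB3 family branch minus Ern2 shifted the other way by -0.49, from 3.73 ± 0.09 (SD, n = 3) to 3.24 ± 0.19 (SD, n = 3), again without overlap. This last shift was -0.20 under quantile normalization, and it turned to 0.18 with normexp background correction on all arrays. No p is given for these scores over members.

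The mean of the PERK branch hid its members. It changed by -0.13, because the rise of Eif2ak3 and the falls of Atf4 and Ddit3 nearly cancelled, whereas the ATF6 and CREB3 family branch changed by -1.62. Both of these changes are relative to the 75th percentile. Without scaling, Eif2ak3 (3.41), Atf4 (0.58) and Ddit3 (1.16) were all positive and did not cancel, and Atf6 was at -0.17, Creb3l2 at -0.15 and Creb3l3 at 0.99. Within the arrays, Eif2ak3 minus Atf4 moved from -8.61 ± 0.12 to -5.79 ± 0.04 (SD, n = 3 per group), a shift of 2.83. Eif2ak3 minus Atf6 moved from -5.10 ± 0.18 to -1.52 ± 0.07 (SD, n = 3 per group), a shift of 3.58, the widest of those computed on these values. Both shifts were smaller under quantile normalization, at 2.21 and 3.38. With normexp background correction they were 1.05 and 1.86 on all arrays, and 2.04 and 2.74 with control 3 left out. With normexp on all arrays the shift of Eif2ak3 minus Ern2, at 1.89, was the widest. The last of the sensors, Ern2, also parted from Eif2ak3: Eif2ak3 minus Ern2 was -1.14, -1.07 and -1.38 on the control arrays and 1.49, 1.57 and 1.42 on the S3d arrays. These differences show that Eif2ak3 changed unequally to each of these genes and do not show that any single gene stayed constant.

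**Figure D3:**
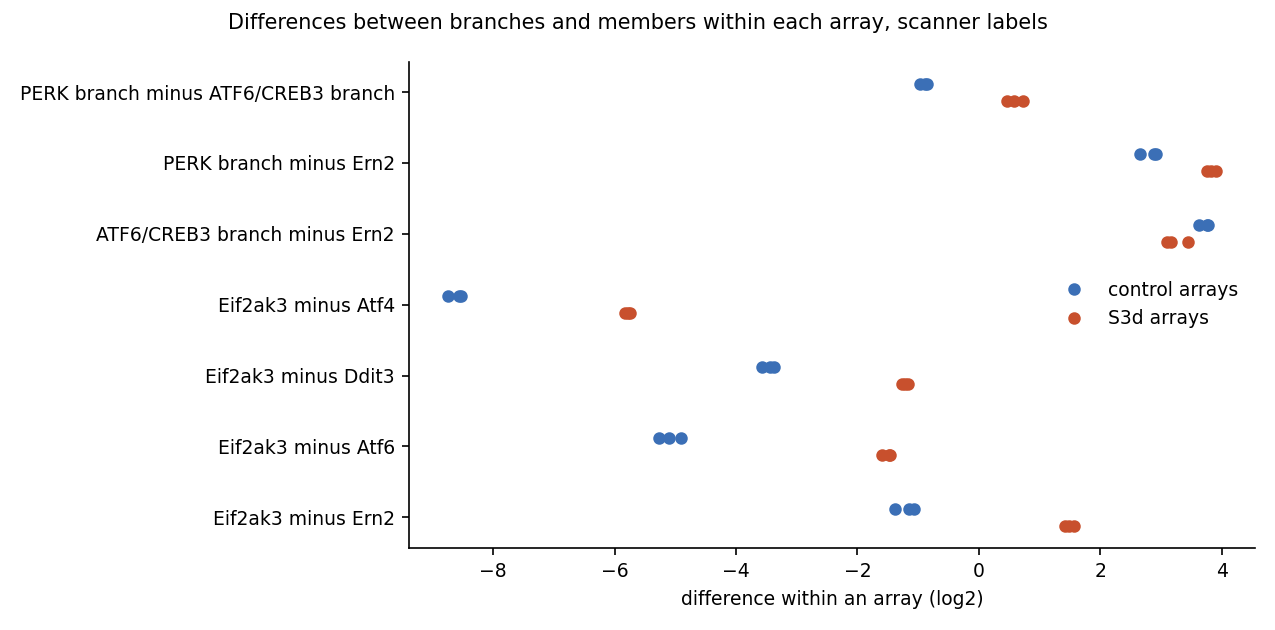
Differences of log2 levels within each of the 6 arrays, between the branch means and between Eif2ak3 and 4 other members, by the scanner labels (blue, control; red, S3d; n = 3 each). The groups are separate in every row, and the mean of the PERK branch minus the ATF6 and CREB3 family branch lies 1.49 higher in the S3d arrays than in the control arrays. The position of 0 has no meaning, since different probes are compared.

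Under the other labelling, that of the deposited normalized table, the signs turned. Its log2 fold changes, S3d minus control by its own labels, were -1.46 for Eif2ak3, 0.74 for Atf4, 0.67 for Ddit3, 1.26 for Ern2, 1.92 for Atf6 and 2.28 for Creb3l2, all past the test with limma adjusted p between 1.68e-05 and 0.000349. In the table Eif2ak3 was therefore the single member that fell, at 8.53, 8.56 and 8.52 in the control columns and 7.05, 7.19 and 7.01 in the S3d columns. Atf6 was at 10.05, 10.08 and 10.16 in the control columns and 12.12, 11.96 and 11.98 in the S3d columns. Creb3l3 was at 15.68, 15.83 and 15.48 against 15.52, 16.06 and 15.92, and these groups overlapped. Its log2 fold change of 0.17 ± 0.17 (SE, n = 3 per group) did not pass the test (limma adjusted p = 0.398).

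Between the labellings, 6 of 7 members were called in the table, 5 higher and 1 lower, where 69.9% of all tested probes were called, 35.2% higher and 34.7% lower, and 48.1% also by at least 1.5-fold. Without scaling, 5 of 7 members were called, all 5 of them higher, against 96.0% of all probes. With normexp background correction on all arrays 1 of 7 was called against 5.53% of all probes, and with control 3 left out, an alternative added after seeing the data, all 7 were called against 78.0%. The table holds the same hybridizations under exchanged labels, so its values are not independent of those of the scanner files. With scaling or normalization between arrays, the sign of Eif2ak3 was opposite to those of Atf4, Ddit3, Ern2, Atf6 and Creb3l2 under either labelling. Without scaling, by the scanner labels, Eif2ak3 (3.41), Atf4 (0.58), Ddit3 (1.16) and Ern2 (0.71) had the same sign. The PERK branch minus the ATF6 and CREB3 family branch shifted by -1.47 in the table, the PERK branch minus Ern2 by -1.28 and the ATF6 and CREB3 family branch minus Ern2 by 0.20. Eif2ak3 minus Atf4 shifted by -2.20 and Eif2ak3 minus Atf6 by -3.38.

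**Figure D4:**
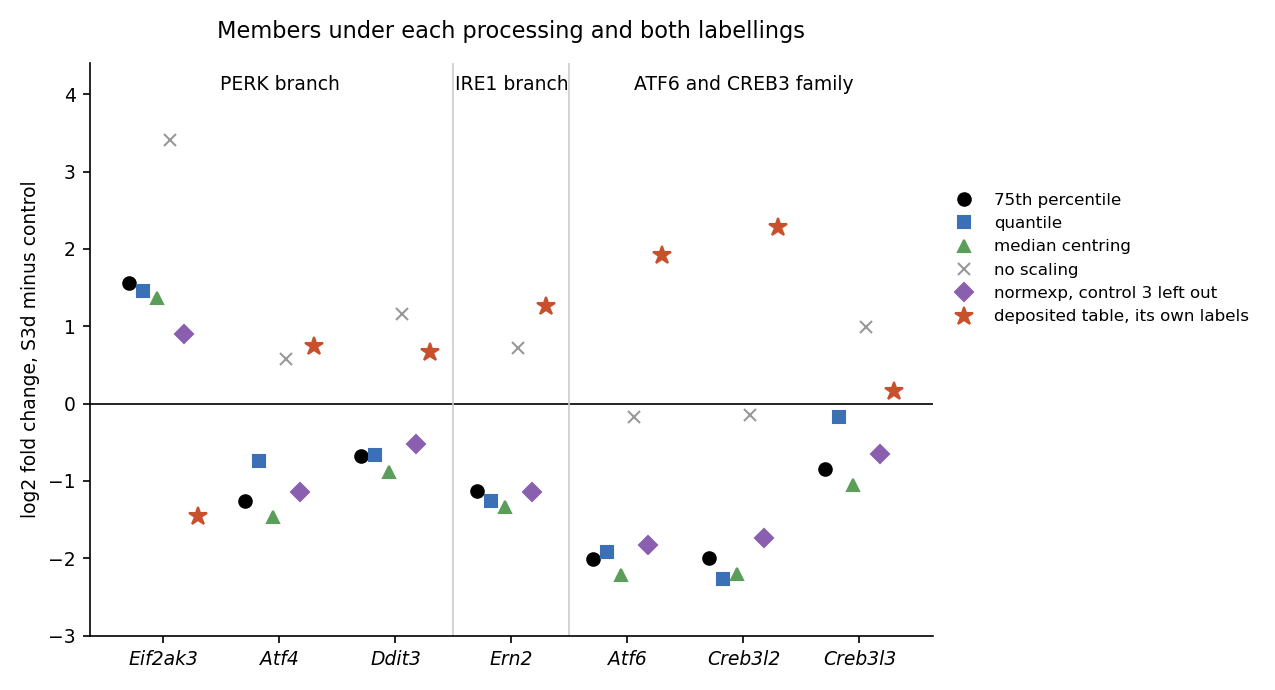
Log2 fold change of the 7 members, S3d minus control, under 5 ways of processing the scanner files by their labels and in the deposited table by its own labels (red stars). Eif2ak3 lies on the opposite side of 0 from the other members under 75th percentile scaling, quantile normalization, median centring, normexp with control 3 left out and in the table, and without scaling Eif2ak3, Atf4, Ddit3, Ern2 and Creb3l3 lie above 0.

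The genes downstream of the sensors were taken from lists of known targets, of which 126 different genes, regulators included, were tested. Of these, 91 were called by the scanner labels, 25 higher and 66 lower, a share of 72.2% against 73.9% of all probes. The median log2 fold change was -0.31 over these genes and 0.09 over all probes, and under the table's labels 49 were called higher and 34 lower with a median of 0.12. With normexp on all arrays the median was -0.17 over these genes and -0.69 over all probes. With normexp and control 3 left out these medians were -0.42 and -0.43, so the lower median of these genes depends on the background correction. Without scaling, 118 were called higher and 4 lower. Of the genes named in the following lists, Cebpb (0.29), Ppp1r15a (1.04), Asns (1.31), Dnajb9 (1.13), Apoa4 (0.43), Apoc2 (0.38) and Atf6b (1.03) then turned to a positive log2 fold change, so their negative values, too, are relative to the scaling.

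The PERK, ATF4 and CHOP targets had 25 tested genes, 6 higher, 11 lower and 8 not called, with a median of -0.22 that turned to 1.62 without scaling and to 0.22 in the table. Nars1, an asparaginyl-tRNA synthetase, rose (1.48 ± 0.08, SE), and Cebpb, a partner of CHOP, fell (-1.55 ± 0.07, SE). Ppp1r15a, which encodes the GADD34 subunit that reverses eIF2α phosphorylation, fell (-0.81 ± 0.13, SE). Asns, the asparagine synthetase gene often used as an ATF4 readout, was at 2.80 ± 0.29 and 2.27 ± 0.37 (SD, n = 3 per group) and was not called (limma adjusted p = 0.0778). Trib3 had no matched probe.

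The ATF6 targets had 13 tested genes, 2 higher, 7 lower and 4 not called, with a median of -0.27 that turned positive under quantile normalization (0.08), without scaling (1.57) and with normexp on all arrays (0.21), and was -0.08 in the table. Calr, which encodes the calcium-binding chaperone calreticulin, fell (-1.87 ± 0.11, SE), but without scaling it was at -0.02 and not called (limma adjusted p = 0.819). Hspa13 rose (0.62 ± 0.10, SE). Hspa5, which encodes BiP, the chaperone that holds the sensors inactive, had a log2 fold change of -0.47 ± 0.13 (SE, limma adjusted p = 0.0157). Its sign turned under quantile normalization (0.28), without scaling (1.38) and with normexp (0.21), and in the table it was -0.30 by the table's own labels (limma adjusted p = 0.0724), so no direction can be given for BiP. Leaving out control 2 or S3d 2 also ended the call of Hspa5 (limma adjusted p = 0.0512 and 0.0514).

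The IRE1 and XBP1 targets, which serve translocation into the ER, its degradation pathway and export, had 36 tested genes, 5 higher, 24 lower and 7 not called. Their median was -0.68, -0.42 under quantile normalization, 1.16 without scaling and 0.42 in the table. Sec61g, a subunit of the translocation channel, fell (-2.66 ± 0.09, SE), and Spcs2, a subunit of the signal peptidase, rose (0.99 ± 0.09, SE). Dnajb9, an ER co-chaperone widely used as an XBP1 target, fell on the brighter of its 2 probes (-0.72 ± 0.11, SE) and on its other probe (-0.94). Edem1 had no matched probe.

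The CREB3L3 targets had 11 tested genes, 2 higher, 5 lower and 4 not called, with a median of -0.29 that was 1.56 without scaling and 0.05 in the table. Apoa4, an apolipoprotein of chylomicrons, had a log2 fold change of -1.42 ± 0.07 (SE, limma adjusted p = 2.45e-05), but -0.07 under quantile normalization (limma adjusted p = 0.524) and -0.05 in the table (limma adjusted p = 0.694). Apoc2, an activator of lipoprotein lipase, fell (-1.47 ± 0.22, SE). Fgf21, a secreted metabolic hormone, was close to the threshold (0.74 ± 0.22, SE, limma adjusted p = 0.0228), and leaving out control 2, S3d 1 or S3d 3 ended the call (limma adjusted p = 0.0539, 0.0619 and 0.0514). Its sign turned with normexp, to -1.42 on all arrays and to -0.65 with control 3 left out, so no direction can be given for it.

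The transport targets of CREB3L2 and the CREB3 family had 9 tested genes, 1 higher, 6 lower and 2 not called, with a median of -0.48 that was 1.37 without scaling, 0.04 with normexp on all arrays and 0.11 in the table. Copz1, a coat protein of vesicles returning to the ER, fell (-2.10 ± 0.08, SE). Copb2, another coat subunit, had a log2 fold change of 0.29 ± 0.06 (SE), which was 0.09 and not called under median centring (limma adjusted p = 0.232).

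The regulators and partners of the sensors had 32 tested genes, 9 higher, 13 lower and 10 not called. Their median was -0.07, and it turned to 0.12 under quantile normalization, 1.78 without scaling and 0.12 with normexp on all arrays, and was -0.13 in the table. Of the proteases that release ATF6, Mbtps1 rose (0.86 ± 0.06, SE, limma adjusted p = 7.01e-05). Mbtps2 had a log2 fold change of 0.43 ± 0.09 (SE, limma adjusted p = 0.00511), which was 0.22 and not called under quantile normalization (limma adjusted p = 0.0671) and turned to -1.13 with normexp on all arrays and to -0.49 with control 3 left out (limma adjusted p = 0.00122), so its direction depends on the background correction. Atf6b, the close relative of Atf6, fell by a smaller step (-0.82 ± 0.07, SE). Eif2s1, the gene of the eIF2α subunit that PERK phosphorylates, rose (0.48 ± 0.09, SE). Ppp1r15b, the constitutive counterpart of Ppp1r15a, fell (-2.47 ± 0.06, SE), and Bax, a death effector that binds IRE1, rose (2.44 ± 0.29, SE). In the table by its own labels Mbtps1 was -0.89, Atf6b 0.81, Eif2s1 -0.54, Ppp1r15b 2.53 and Bax -2.41.

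**Figure D5:**
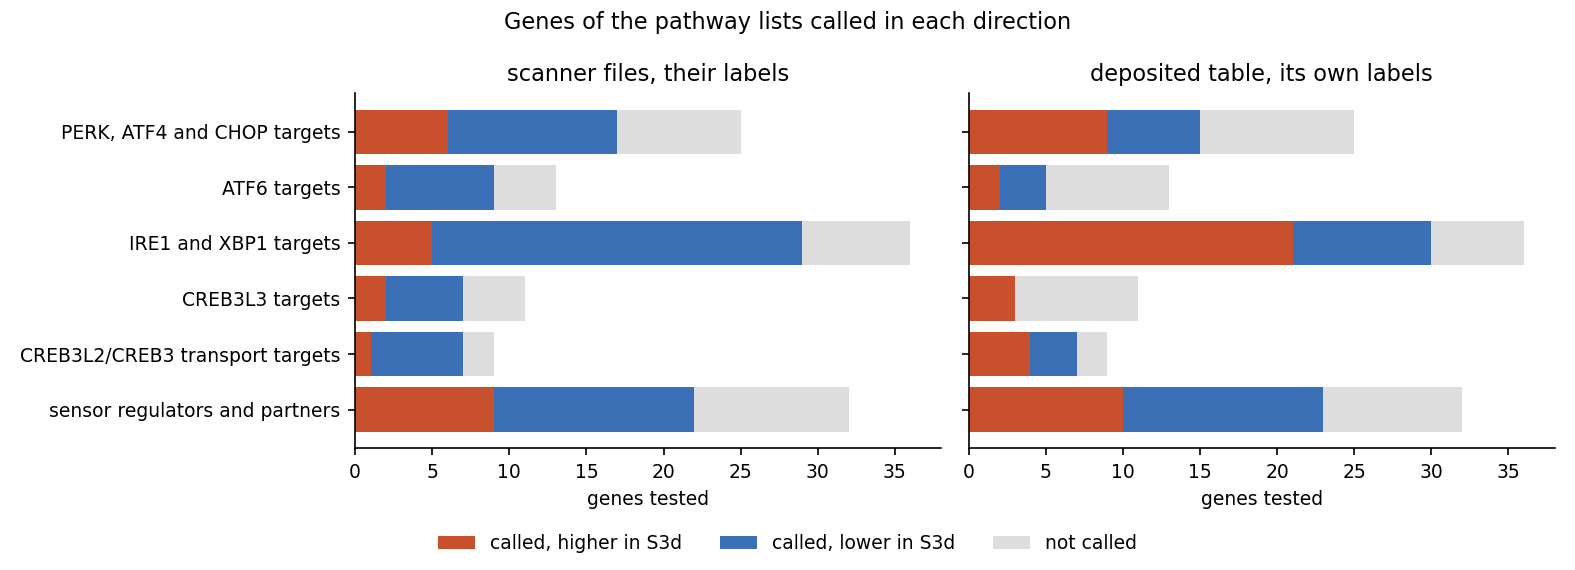
Number of tested genes of each pathway list called higher in S3d (red), called lower in S3d (blue) or not called (grey) at a limma adjusted p under 0.05, by the scanner labels (left) and in the deposited table by its own labels (right). By the scanner labels every list has more genes lower than higher, with 24 of 36 IRE1 and XBP1 targets lower, while 21 of these 36 are higher by the table's labels.

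Markers of several cell types of the jejunum differed between the groups, in directions that depended on the list. By the scanner labels, 11 of 14 tested enterocyte markers were called lower and 1 higher, and their summed linear level relative to the 75th percentile was 3307 to 3646 on the control arrays and 1615 to 1662 on the S3d arrays. Of the goblet cell markers 4 of 5 were lower and none higher, with sums of 1353 to 1424 and 458.9 to 480.9. Of the Paneth cell markers 4 of 5 were lower, with sums of 896.6 to 978.2 and 225.4 to 515.0. Enterocytes and these secretory cells are the known sites of Creb3l3 and Ern2 expression. Of the crypt and proliferation markers 5 of 7 were higher and 2 lower, with sums of 45.3 to 49.7 and 51.0 to 52.6.
Enteroendocrine markers were lower in 5 of 8 and higher in 1, smooth muscle markers lower in 3 of 7 and higher in 2, plasma cell and B cell markers lower in 4 of 6 and higher in 1, and other leukocyte markers lower in 5 of 8 and higher in 2. Under quantile normalization 5 of the 14 enterocyte markers were called higher and 3 lower, and without scaling the median of every marker list was above 0. In the table by its own labels 3 of 14 enterocyte markers were called higher and 5 lower, 3 of 5 goblet cell markers were higher and 1 lower, 2 of 5 Paneth cell markers were higher and 1 lower, and 1 of 7 crypt and proliferation markers was higher and 4 lower. The part of these cell types in the members' values was not tested.

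The genes most like Atf6 over the 6 arrays, by Pearson's r among 11457 named genes, were Cdkn2aipnl (0.99987), Psme1 (0.99985) and Mrpl1 (0.99983). Those most like Eif2ak3 were Sec14l1 (0.99984), Clk2 (0.99971) and Yeats2 (0.9997). With 3 arrays in each of 2 separate groups, such values mainly rank how tightly a gene follows the group means. Sec14l1 rose on its brighter probe (1.14) but fell on its other probe (-1.71).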

How the data were processed

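The authors deposited, per array, the scanner output of Agilent Feature Extraction 10.7.3.1 (10.7 in the submitters' processing notes), whose processed signal is a background-corrected intensity that is not normalized between arrays. A single series-wide file of log2 values was deposited too. Its sorted columns differ by at most 0.0025, as after quantile normalization. The program used for it is not given in the sources used here. All 6 columns of the table were mapped to samples.

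Here log2 processed signals were set relative to the 75th percentile of the array, without control spots and outlier-marked spots, and repeated spots were averaged. The test covered 31420 of 41012 probes, those whose every spot exceeded background clearly throughout either group. It used lmFit and eBayes of limma 3.58.1 (R 4.3.3) without a block and with Benjamini-Hochberg adjustment. Calls of a gene used its brightest probe with an adjusted p under 0.05, and a probe counted as changed also needed a fold of 1.5. The fit was tested on simulated data for this comparison with 31133 probes, 200 of them changed by 1 on the log2 scale. It recovered 65% of these with 5 false calls, and the sign was right in 98.5% of all changed probes and in all of the recovered ones. The simulated arrays had no slide effect and no difference in overall signal between the groups. These figures therefore test the fit and do not give the number of false calls in the real data. Tables and figures were made with pandas 2.3.3, numpy 2.4.6 and matplotlib 3.10.9 in Python 3.11.15.

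Names came from RefSeq accessions and the GRCr8 gene table, which named 17623 probes of 13900 genes. The files' genome build is an older one, so no gene coordinates are given, and promoter windows carry GRCr8 coordinates. With so few arrays, precision is limited.

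The members, the gene lists and the alternatives were chosen with earlier results of these data known. The named genes are all members, from each pathway list the called genes with the highest and the lowest fold change well above background on all 6 arrays, a fixed set (Hspa5, Mbtps1, Mbtps2, Atf6b, Eif2s1, Dnajb9, Edem1, Asns, Trib3, Ppp1r15a and Apoa4) and the 3 genes most like Atf6 and Eif2ak3. Ern1 had no probe to compare with. The alternatives tried were median centring, quantile normalization, unscaled values, normexp with an offset of 50 on the median signal (no mean signal column was found), the deposited table, other filters on dim probes, outlier-marked spots kept, the replicate block, all probes of a gene averaged, one-way analysis of variance, the threshold of an unadjusted p under 0.01 with a fold of 1.5, and each array left out. The differences of Eif2ak3 from Ddit3 and Ern2, and normexp with control 3 left out, were added after seeing the data.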

Additional observations from a re-analysis of the deposited data

How the results depend on the processing

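The 7 member calls were kept under both other filters on dim probes, with outlier-marked spots kept, median centring, all probes of a gene averaged, one-way analysis of variance and with each array left out. With an array left out, probes changed (16483 with all arrays) numbered 16008 to 16478, pathway genes called 79 to 90, and member genes called 7 throughout. The branch shifts ranged from 1.43 to 1.56 (PERK minus ATF6 and CREB3 family), 0.92 to 1.05 (PERK minus Ern2) and -0.59 to -0.42 (ATF6 and CREB3 family minus Ern2). The number of arrays and the dim signal of Creb3l2 limit precision, and slide could not be fitted as a block because each group lay on its own slide.

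Quantile normalization gave 1.27 for PERK minus Ern2, -0.20 for ATF6 and CREB3 family minus Ern2 and 0.28 for Hspa5, and the cause was not tested. The mean over all probes gave -0.29 for Sec14l1, whose probes moved in opposite directions.

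Without scaling, 28948 probes changed, 98.8% of them higher, against 55.7% with 75th percentile scaling, 49.9% after quantile normalization, 43.3% after median centring and 50.2% in the table. The median of all probes was then 1.93 instead of 0.09. Atf4 was 0.58, Ddit3 1.16, Ern2 0.71, Creb3l3 0.99, Hspa5 1.38, Cebpb 0.29, Apoc2 0.38, Atf6b 1.03, Dnajb9 1.13, Asns 1.31, Ppp1r15a 1.04, Apoa4 0.43, Cdkn2aipnl 0.39, Psme1 1.31 and Mrpl1 0.85. All of these are reversed, while Atf6 (-0.17, adjusted p = 0.104), Creb3l2 (-0.15, adjusted p = 0.552) and Calr (-0.02, adjusted p = 0.819) lost their calls. 5 members stayed called.

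With normexp background correction 1738 probes changed, 31.0% of them higher, 7 pathway genes were called and 1 member, Creb3l2. PERK minus ATF6 and CREB3 family was 1.11, PERK minus Ern2 1.29, ATF6 and CREB3 family minus Ern2 0.18, Fgf21 -1.42, Hspa5 0.21, Mbtps2 -1.13 and Psme1 0.15. On control 3, 8 spots had a local background more than 100 above their signal, and the background mean was estimated at -840.92, against -12.81 to -5.51 on the other arrays. With control 3 left out, an alternative added after seeing the data, 16224 probes changed, 20.0% of them higher, and all 7 members were called. The branch differences, in the same order, were then 1.15, 0.89 and -0.27, Fgf21 was -0.65 and Mbtps2 -0.49.

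The deposited table, by its own labels, reversed the members (Eif2ak3 -1.46, Atf4 0.74, Ddit3 0.67, Ern2 1.26, Atf6 1.92, Creb3l2 2.28, Creb3l3 0.17), the branch differences (-1.47, -1.28 and 0.20) and the differences of Eif2ak3 from Atf4 (-2.20), Ddit3 (-2.12), Atf6 (-3.38) and Ern2 (-2.72). It also reversed Nars1 (-1.50), Cebpb (1.61), Hspa13 (-0.79), Calr (1.45), Spcs2 (-1.07), Sec61g (2.42), Fgf21 (-0.24), Apoc2 (0.80), Copb2 (-0.73), Copz1 (2.13), Bax (-2.41), Ppp1r15b (2.53), Mbtps1 (-0.89), Mbtps2 (-0.21), Atf6b (0.81), Eif2s1 (-0.54), Dnajb9 (0.69), Asns (0.35), Ppp1r15a (0.83), Cdkn2aipnl (1.31), Psme1 (0.062), Mrpl1 (0.76), Sec14l1 (-1.21), Clk2 (-0.70) and Yeats2 (-2.12).

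The replicate numbers did not pair the samples. The deviations of same-numbered arrays correlated at 0.02, 0.02 and -0.05 over probes, and the replicate block left 16344 probes changed, 84 pathway genes and 7 members called, and ended the call of Fgf21 (adjusted p = 0.0606).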
